A study of Mus musculus with 25 samples.

Results

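The comparison set 8 libraries of miR-150 knock-in CD4 T cells against 9 libraries of wild-type CD4 T cells, 17 of the 25 libraries in the series. Genotype and stage were read from the library titles, and the 8 miR-150 knock-out libraries did not enter. Each library held total RNA of sorted CD4 T cells of the mouse strain C57BL/6NTac. The mice were naive, or had been induced 7 days earlier to develop experimental autoimmune encephalomyelitis (EAE), in which immunised mice develop an inflammation of the central nervous system. The groups were knock-in naive (4 libraries), wild-type naive (4), knock-in day 7 (4) and wild-type day 7 (5). Stage was a term of the model, so each pooled value below is the average difference of knock-in from wild-type cells over both stages. The labels do not say what the knock-in allele holds, which promoter drives it, which organ the cells came from or whether the mice of a group were pooled. Since separate mice are not stated, p-values describe these samples only, and their scatter may be technical.

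MicroRNAs are short RNAs that guide Argonaute proteins to messenger RNAs, most often through a match to the seed, bases 2 to 8 of the mature strand, and lower the level or translation of those messages. miR-150 is abundant in resting mature lymphocytes and is cut from a hairpin with mature strands miR-150-5p and miR-150-3p. Its best known target is Myb, a transcription factor of lymphoid progenitors. CD4 T cells are the helper cells that drive EAE, with the Th1 and Th17 subsets as its main effectors and regulatory T cells as its brake. The seed of miR-150-5p is not shown, and no seed was used to choose the targets below. The passenger strand, miR-150-3p, is shown to place its own seed, in capitals, from RefSeq on GRCm38.p6 (chr7:45121798-45121819, plus strand).
mmu-miR-150-3p: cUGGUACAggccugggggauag

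Total counts ran from 6454287 to 45739082 in knock-in libraries and from 6024043 to 30383082 in wild-type libraries, and the wild-type naive libraries were the shallowest group (6024043 to 9351180). The share of counts on rRNA-type genes was 16% to 19.9% in knock-in and 15.1% to 19.4% in wild-type libraries. Cd4 stood at 434 to 498 CPM (counts scaled to library size) in knock-in and 437 to 515 CPM in wild-type libraries. The 15 markers of NK, gamma-delta and CD8 T cells summed to 58.2 to 91 CPM in knock-in and 55.3 to 91.6 CPM in wild-type libraries. Cd8a stood at 3.67 CPM or less in knock-in and 1.71 CPM or less in wild-type libraries. Other members were higher. Cd8b1 stood at 9.10 to 11.6 CPM in knock-in and 6.64 to 11.7 CPM in wild-type libraries. Ctsw stood at 9.84 to 29.2 CPM in knock-in and 14.5 to 28.1 CPM in wild-type libraries. Prf1 and Trdc were also read in every library. B cell markers summed to 153 to 405 CPM in knock-in and 164 to 227 CPM in wild-type libraries, and myeloid and dendritic cell markers to 19.04 to 48.4 CPM in knock-in and 19.7 to 36.1 CPM in wild-type libraries. Of the red cell and platelet markers Pf4 and Ppbp were at 0 in every library and Itga2b at 2.10 to 4.18 CPM in knock-in and 1.49 to 4.40 CPM in wild-type libraries. Of the stroma and endothelium markers Ccl19 was at 0 and Pecam1, which T cells also express, at 231 to 256 CPM in knock-in and 202.2 to 286 CPM in wild-type libraries. Wild-type and knock-in libraries were not spread evenly over the library numbers. Only 2 of the sets of 4 consecutive numbers held both genotypes, and values within those sets are given where they differ. The labels do not call these sets a batch.

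No gene passed the test for an average knock-in effect. edgeR's quasi-likelihood test called 0 of 13860 tested genes at an adjusted p under 0.05, which is 0% of them, and DESeq2 and limma voom also called 0. The lowest adjusted p was 0.9996. An unadjusted p under 0.05 was reached by 589 genes, or 4.25% of those tested, of which 306 (2.21%) had the higher mean in knock-in and 283 (2.04%) in wild-type cells. A flat distribution of p would put 5% there. In the same libraries and model, 1584 genes (11.4%) passed for day 7 against naive cells, 869 (6.27%) higher and 715 (5.16%) lower at day 7.

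**Figure D1:**
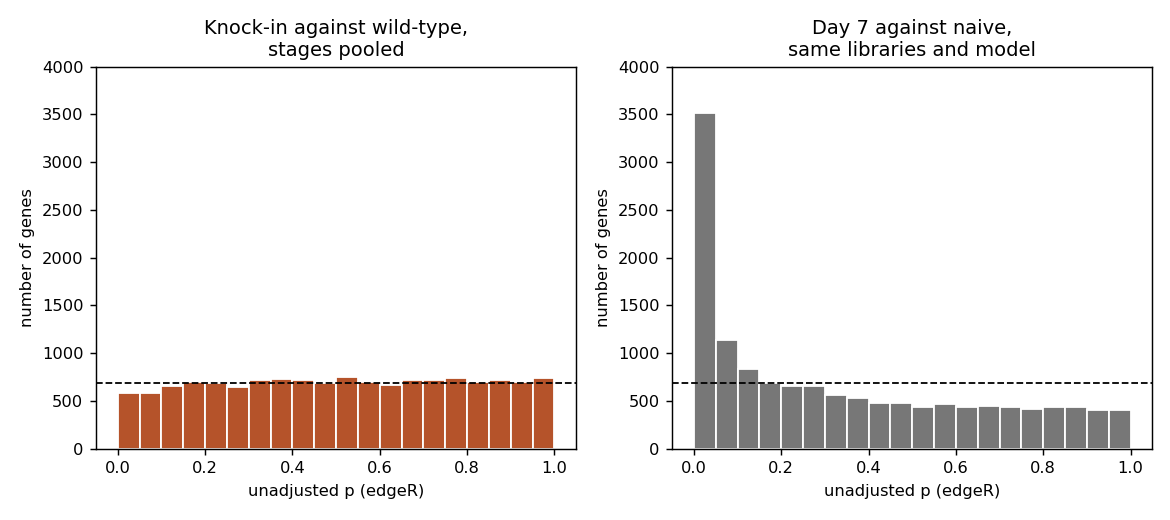
Number of tested genes by unadjusted edgeR p in steps of 0.05, for knock-in against wild-type cells with stages pooled (left) and for day 7 against naive cells in the same model (right). The dashed line is the 693 genes per step of a flat distribution; the left histogram has no peak at low p, where 589 genes lie, and the right one has.

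The intervals around these values were narrow. The median standard error (SE) of a log2 fold change was 0.107 over all tested genes and 0.0778 over the 9524 genes with a mean of at least 5 CPM. For 9190 of those 9524 genes (96.5%) the 95% interval of the pooled knock-in difference lay wholly within 1.5-fold in either direction. For 9424 (98.95%) it lay within 2-fold. Of all 13860 tested genes, 10141 had intervals within 1.5-fold and 12232 within 2-fold. A p above the threshold does not show that a gene was equal in both genotypes. The interval gives the average differences over both stages that the data allow. Differences of opposite sign in naive cells and at day 7 can cancel in it, as for Dnaja1 below. Over the 9524 genes, stage accounted for 23.2% of the variance of log2 CPM and genotype for 4.30%. The change of the genotype difference with stage (interaction) accounted for 5.47%. The residual took 5.16% per degree of freedom, more than the 1 degree of freedom of genotype and less than that of the interaction.

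**Figure D2:**
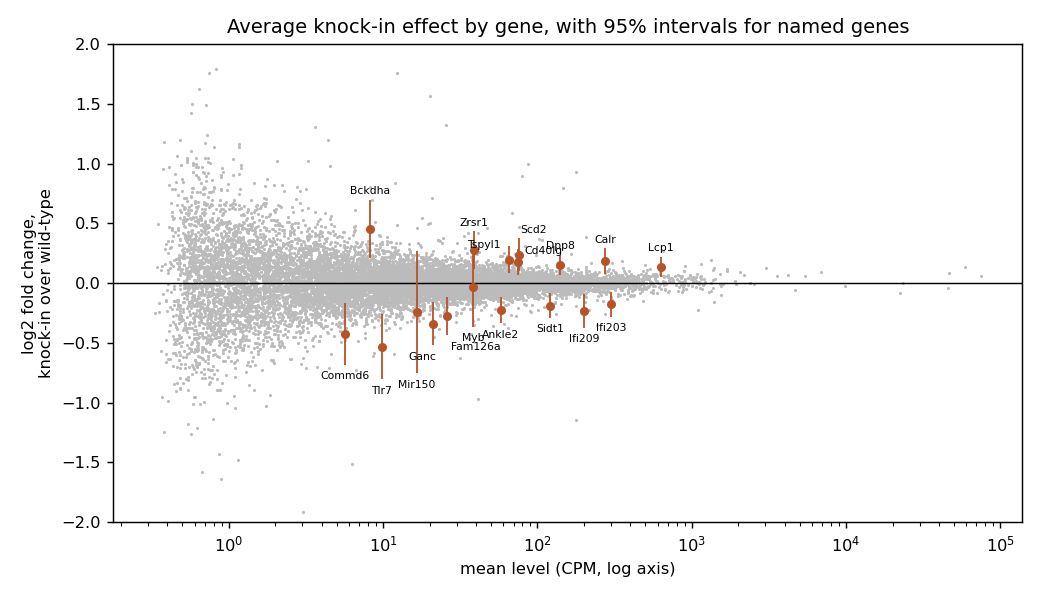
Log2 fold change of knock-in over wild-type cells, stages pooled, against the mean level in CPM on a log axis, for each tested gene (grey; 5 genes lie beyond the axis). Orange points with 95% intervals are Mir150, Myb and the 16 genes with the smallest p; most grey points lie close to 0, and the spread widens at low levels.

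The Mir150 gene itself was read in every library (Mir150, ENSMUSG00000065495, chromosome 7, 45121757 to 45121821 in mm10). In naive cells it gave 12.8, 14.1, 13.8 and 16.2 CPM in knock-in libraries, against 24.4, 23.9, 17.8 and 14.4 CPM in wild-type libraries. The day 7 values were 29.3, 15, 10.5 and 9.11 CPM in knock-in libraries, against 13.0, 17.1, 25.8, 12.4 and 13.2 CPM in wild-type libraries. The genotypes overlapped at both stages. Knock-in libraries averaged 15.1 ± 6.20 CPM (SD, n = 8) and wild-type libraries 18 ± 5.37 CPM (SD, n = 9), from 105 to 624 and 111 to 743 counts per library. The pooled log2 fold change was -0.24 (SE 0.24, 95% interval -0.76 to 0.27, adjusted p = 0.9996 by edgeR). It was -0.51 without knock-in day 7 replicate 1 (adjusted p = 0.999 by edgeR) and 0.07 within the sets of library numbers that hold both genotypes. Total RNA libraries are not made to capture mature microRNAs, and how much mature miR-150 the cells held was not measured.

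Neighbouring genes gave no sign of a difference larger than the scatter. Of the 10 tested genes nearest to Mir150, 5 on each side, none was called. Rpl13a, a ribosomal protein gene on the other flank from Prr12, averaged 1122 ± 208.3 CPM in knock-in and 1122 ± 230 CPM in wild-type libraries (SD, n = 8 and 9; log2 fold change 0.01, SE 0.11). Nosip, which encodes an interactor of nitric oxide synthase, had -0.05 (SE 0.08), and Prr12 on the same flank 0.03 (SE 0.05). Prrg2, Rcn3 and Fcgrt had low means (at most 2.41 CPM in either genotype) and wide errors (SE 0.41, 0.24 and 0.26). Over chromosomes, the share of genes with an unadjusted p under 0.05 ran from 3.38% on chromosome 2 to 5.93% on chromosome 19 and was 4.07% on chromosome 7, close to the 4.25% of all genes.

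Reported targets of miR-150 lay on both sides of 0. Of 20 tested genes that studies have named as targets, 7 had a positive and 13 a negative log2 fold change, with a median of -0.03 beside 0.002 for all tested genes, and 0 were called. An unadjusted p under 0.05 was reached by 3 of the 20, all with the higher mean in knock-in cells (Slc2a1, P2rx7 and Vegfa), and by none with the lower mean. Of all tested genes 2.21% reached it on the higher and 2.04% on the lower side. Myb (chromosome 10, 21124935 to 21160984) averaged 37.6 ± 12.6 CPM in knock-in and 38.8 ± 7.30 CPM in wild-type cells (SD, n = 8 and 9; log2 fold change -0.03, SE 0.16, 95% interval -0.37 to 0.30). The smallest p on the list belonged to Slc2a1, the glucose transporter GLUT1, at 27.0 ± 2.18 and 23.1 ± 2.22 CPM (log2 fold change 0.22, SE 0.07, unadjusted p = 0.00428 and adjusted p = 0.9996 by edgeR). P2rx7, an ATP-gated channel, had 0.36 (SE 0.16). Both means were higher in knock-in cells. Ccnd2, Foxp1, Zeb1, Ep300 and Cblb, which control the cell cycle, quiescence, transcription and receptor signalling, had log2 fold changes of 0.07, -0.04, -0.04, -0.02 and -0.03. Of 14 microRNA processing and silencing genes 0 were called, with a median of -0.02; Ago1, an Argonaute protein, had 0.06 (SE 0.05) and Ddx6, a helicase of silenced messages, -0.04 (SE 0.05).

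The genes with the smallest p give the size of the average differences that the data could hold. All 16 had an adjusted p of 0.9996 and are given as values that did not pass. All kept their sign within the sets with both genotypes. Those libraries are among the ones that chose these genes, so this is no separate check. Lowest of all was Ankle2 (chromosome 5, 110231004 to 110256651), which takes part in rebuilding the nuclear envelope after mitosis. In naive cells it stood at 56.4, 52.1, 56.2 and 56.6 CPM in knock-in libraries, against 68.9, 60.9, 65.4 and 65.6 CPM in wild-type libraries. Day 7 values were 45.7, 50.8, 54.0 and 57.1 CPM in knock-in libraries, against 57, 65.2, 54.7, 64.9 and 60.0 CPM in wild-type libraries. The genotypes did not overlap in naive cells, as for 3.27% of genes tested, and overlapped at day 7. The pooled log2 fold change was -0.23 (SE 0.05, unadjusted p = 0.000206 by edgeR), and it was -0.33 within the sets with both genotypes.

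On the lower side in knock-in cells, the other 7 genes were Tlr7, Ganc, Sidt1, Fam126a, Ifi203, Commd6 and Ifi209. Tlr7, an endosomal sensor of single-stranded RNA (chromosome X, 167304929 to 167330558), averaged 8.06 ± 2.64 CPM in knock-in and 11.6 ± 3.53 CPM in wild-type cells (log2 fold change -0.53, SE 0.13, unadjusted p = 0.000428 by edgeR). It ranged over 6.37 to 13.5 CPM in knock-in and 13.6 to 17.4 CPM in wild-type naive libraries, and over 5.57 to 7.11 CPM and 6.26 to 11.4 CPM at day 7. No knock-in library exceeded the lowest wild-type library in naive cells, where 3.27% of genes tested did not overlap, but the genotypes overlapped at day 7. Commd6 (chromosome 14, 101632981 to 101640686), of a family that binds endosomal sorting complexes, was the 1 gene whose knock-in libraries all lay below the wild-type libraries within each stage (0.00722% of genes tested). It averaged 4.87 ± 0.533 CPM in knock-in and 6.43 ± 0.80 CPM in wild-type cells (log2 fold change -0.43, SE 0.13). Sidt1, a transmembrane protein of the SID1 family that binds RNA, had -0.19 (SE 0.05), Ganc, a neutral glucosidase, -0.34 (SE 0.09), and Fam126a, part of a lipid kinase complex at the plasma membrane, -0.28 (SE 0.08). Ifi203 and Ifi209 belong to the interferon-inducible Ifi200 family and had -0.18 (SE 0.05) and -0.23 (SE 0.07). Members of that family are near copies of each other, so the split of reads between them is uncertain.

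On the higher side, the 8 genes were Bckdha, Dpp8, Zrsr1, Tspyl1, Scd2, Calr, Cd40lg and Lcp1. Bckdha (chromosome 7, 25629946 to 25658981), a subunit of the enzyme that breaks down branched-chain amino acids, stood at 7.45, 8.76, 8.98 and 6.67 CPM in knock-in and 7.21, 6.32, 7.15 and 5.97 CPM in wild-type naive libraries. At day 7 it stood at 11, 14.1, 9.0 and 10.1 CPM in knock-in libraries, against 7.98, 7.55, 6.32, 6.57 and 8.02 CPM in wild-type libraries. The day 7 libraries did not overlap, as for 1.49% of genes tested, and the naive ones did. Its pooled log2 fold change was 0.46 (SE 0.12, unadjusted p = 0.000589 by edgeR), the largest of these 8. Dpp8 (chromosome 9, 65032414 to 65082651), a cytosolic dipeptidyl peptidase, was 1 of 3 genes (0.0216% of those tested) whose knock-in libraries all lay above the wild-type libraries within each stage. It averaged 149 ± 6.53 CPM in knock-in and 133 ± 7.30 CPM in wild-type cells (log2 fold change 0.15, SE 0.04). The other two were the predicted genes Gm42633 (0.96) and 5730480H06Rik (0.18). Cd40lg, the ligand by which helper T cells signal to B cells, averaged 79.4 ± 6.42 and 70.4 ± 4.71 CPM (log2 fold change 0.18, SE 0.05). Calr, an endoplasmic reticulum chaperone, had 0.18 (SE 0.05), and 0.32 within the sets with both genotypes. Lcp1, an actin-bundling protein of leukocytes, had 0.14 (SE 0.04), Scd2, a fatty acid desaturase, 0.24 (SE 0.07), and the imprinted splicing factor gene Zrsr1 0.28 (SE 0.08).

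**Figure D3:**
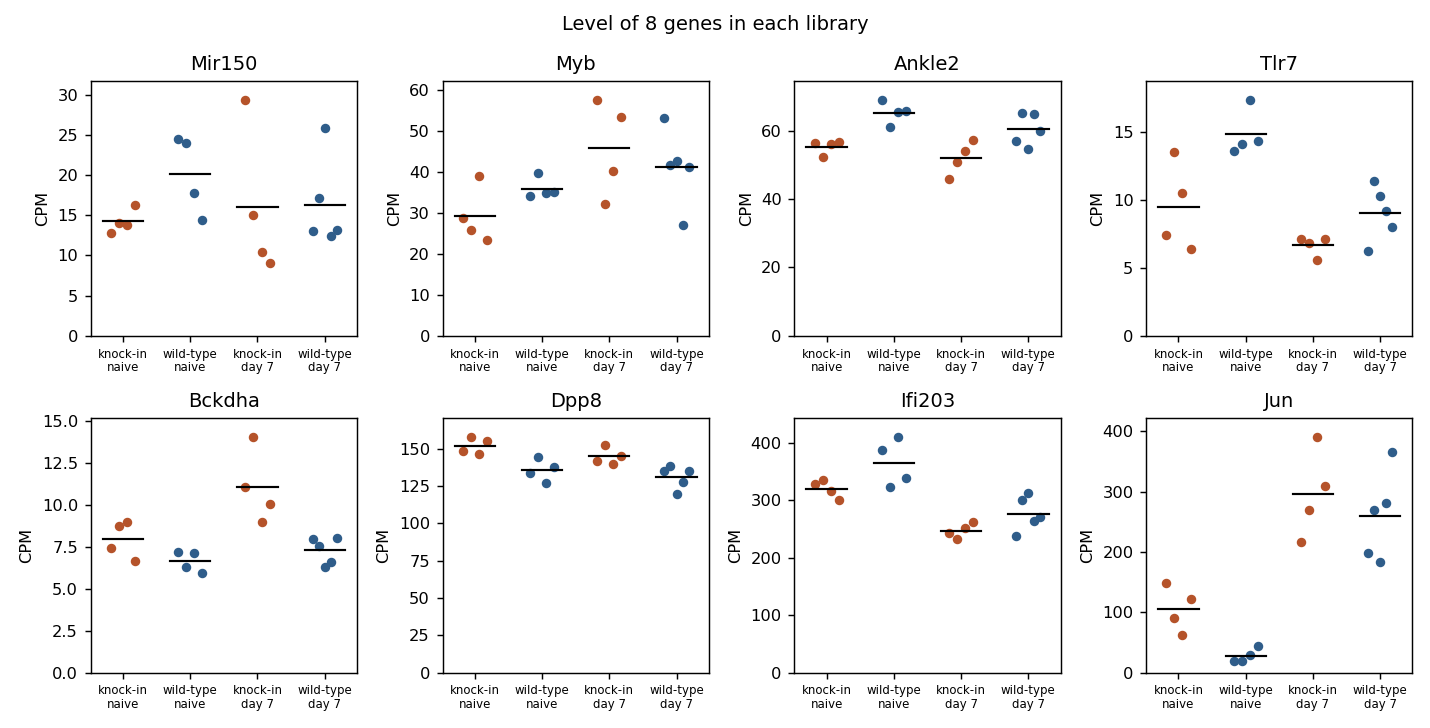
CPM of 8 genes in each library, with a bar at the group mean, in knock-in and wild-type cells at each stage. Ankle2 and Tlr7 were lower and Jun higher in all 4 knock-in than in all 4 wild-type naive libraries, Dpp8 was higher in all knock-in libraries at both stages, and Mir150 and Myb overlapped at both stages. Of all genes tested, 3.27% did not overlap between genotypes in naive cells.

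Interferon-stimulated genes had 1 direction throughout the pooled values, unlike any other list of at least 7 tested genes. The 2 sets of library numbers with both genotypes went opposite ways. All 34 tested genes had a negative pooled log2 fold change, from -0.71 for Rsad2, an antiviral enzyme, up to -0.01. Their median was -0.30 (-0.40 in naive cells and -0.17 at day 7). None was called, and 7 had an unadjusted p under 0.05, beside 2.04% of all tested genes on the lower side. Within the sets with both genotypes the median was 0.05, with 21 genes positive and 13 negative, and it was -0.22 with library number as a covariate. The mean log2(CPM + 0.5) of the list was 4.6, 5.56, 4.93 and 4.72 in knock-in naive libraries, against 5.71, 5.07, 5.79 and 5.01 in wild-type naive libraries. At day 7 it was 5.12, 4.57, 4.6 and 4.99 in knock-in libraries, against 4.66, 5.21, 5.58, 4.46 and 5.02 in wild-type libraries. The highest 2 values were those of wild-type naive replicates 1 and 3, which lie in sets without knock-in libraries, and the genotypes overlapped at both stages. The part of the library sets in this difference was not tested apart from these values.

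Ifit1, an antiviral protein that binds foreign RNA caps, shows the same layout at a higher level. In naive cells it gave 19.1, 55.4, 26.1 and 16.4 CPM in knock-in libraries, against 76.8, 28.8, 78.6 and 28.3 CPM in wild-type libraries. Its log2 fold change was -0.63 (SE 0.32, unadjusted p = 0.0656 by edgeR) in all libraries and 0.16 within the sets with both genotypes. Isg15, a ubiquitin-like modifier, had -0.40 (SE 0.34), and 0.36 within those sets. Irf9, a subunit of the factor that turns these genes on, averaged 104 ± 15.9 and 117 ± 18.4 CPM (-0.20, SE 0.07). The 14 interferon-induced GTPases, which also answer to interferon-gamma, had a median of -0.03 with 5 positive and 9 negative. An interferon response element was searched on both strands as GAAA, any 2 bases, then GAAA, and is given in capitals (TTTC on the other strand). Promoter windows are shown for 4 of the interferon-stimulated genes that held it. They are 30 bases from RefSeq on GRCm38.p6 in the direction of the gene: Ifit1 at chr19:34640775-34640804 (plus), Rsad2 at chr12:26456553-26456582 (minus), Isg15 at chr4:156200877-156200906 (minus) and Ifi203 at chr1:173942508-173942537 (minus).
Ifit1: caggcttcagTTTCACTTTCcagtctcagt
Rsad2: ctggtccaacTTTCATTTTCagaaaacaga
Isg15: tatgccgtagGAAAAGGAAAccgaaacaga
Ifi203: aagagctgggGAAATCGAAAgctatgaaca
Of the 24 interferon-stimulated genes with a promoter of 300 bases in the table, 16 (66.7%) held the motif, against 346 of 9086 tested genes with one (3.81%). A match describes the sequence and is no measure of binding.

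Early response and heat shock genes had mostly positive values in naive cells and medians below 0 at day 7; the lists carry no test, and edgeR called none of these genes, pooled or for a change with stage. Of 15 heat shock proteins and co-chaperones 0 were called in the pooled comparison, with a median of 0.11. All 15 had a positive value in naive cells (median 0.42) and 2 of 15 at day 7 (median -0.15). Hspa8, a constitutive HSP70 chaperone, stood at 1040, 878, 942 and 774 CPM in knock-in naive libraries, against 650, 692, 600 and 678 CPM in wild-type naive libraries. At day 7 it stood at 902, 821, 902 and 1144 CPM in knock-in libraries, against 989, 1046, 1120, 998 and 1120 CPM in wild-type libraries. The naive libraries did not overlap, as for 3.27% of genes tested, and the day 7 ones did. Its stage values were 0.47 and -0.16 and its pooled value 0.14 (SE 0.11). Dnaja1, a co-chaperone of HSP70, had 0.42 in naive cells, -0.51 at day 7 and -0.07 pooled (SE 0.15). Hsp90ab1, an HSP90 chaperone, had the smallest pooled p of the list (0.19, SE 0.08, unadjusted p = 0.0319 by edgeR). Within the sets with both genotypes the list's pooled median was 0.003, with 8 genes positive and 7 negative, but the stages differed there too. The list's mean log2(CPM + 0.5) was higher in knock-in than wild-type naive cells of both sets (7.15 against 6.29, and 6.87 against 6.59). At day 7 it was lower in knock-in cells of both (6.42 against 7.22, and 6.80 against 7.39).

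Of 30 immediate early and AP-1 genes, which cells induce rapidly after a stimulus, 28 were positive in naive cells (median 0.20) and 14 at day 7 (median -0.02). The pooled median was 0.08, with 18 positive, 12 negative and 0 called. Jun, an AP-1 subunit, had a pooled log2 fold change of 0.93 (SE 0.32, unadjusted p = 0.0123 by edgeR). It stood at 149, 90.0, 62.2 and 122 CPM in knock-in naive libraries, against 19.3, 19.2, 28.6 and 44.4 CPM in wild-type naive libraries. The naive genotypes did not overlap, as for 3.27% of genes tested. At day 7 it ranged over 216.8 to 391 CPM in knock-in and 184 to 366 CPM in wild-type libraries, which overlapped. Junb, its relative, had 0.31 (SE 0.12), with 0.68 in naive cells and 0.03 at day 7. Zfp36, which destabilises cytokine messages, had 0.14 (SE 0.06), and Dusp1, which removes phosphate from MAP kinases, 0.42 (SE 0.24).

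Whether the knock-in difference changed with stage was tested directly. edgeR called 0 of 13860 genes for the interaction (0%), with 660 (4.76%) at an unadjusted p under 0.05 and a lowest adjusted p of 0.0725 for Zkscan8, a zinc finger gene (-0.39 in naive cells and 0.26 at day 7). DESeq2 called 12 genes, Dnaja1, Hspa8, Hsph1, Hsp90aa1 and Junb among them, and limma voom 3. For naive cells alone edgeR called 0 genes (419, or 3.02%, at an unadjusted p under 0.05) and DESeq2 7, all heat shock or early response genes: Jun, Junb, Dusp1, Ppp1r15a, Hspa8, Hsp90aa1 and Hsp90ab1. For day 7 alone edgeR called 0 genes (844, or 6.09%, at an unadjusted p under 0.05) and DESeq2 1, Dnaja1. The signs of the naive and day 7 values agreed for 6769 of 13860 genes.

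**Figure D4:**
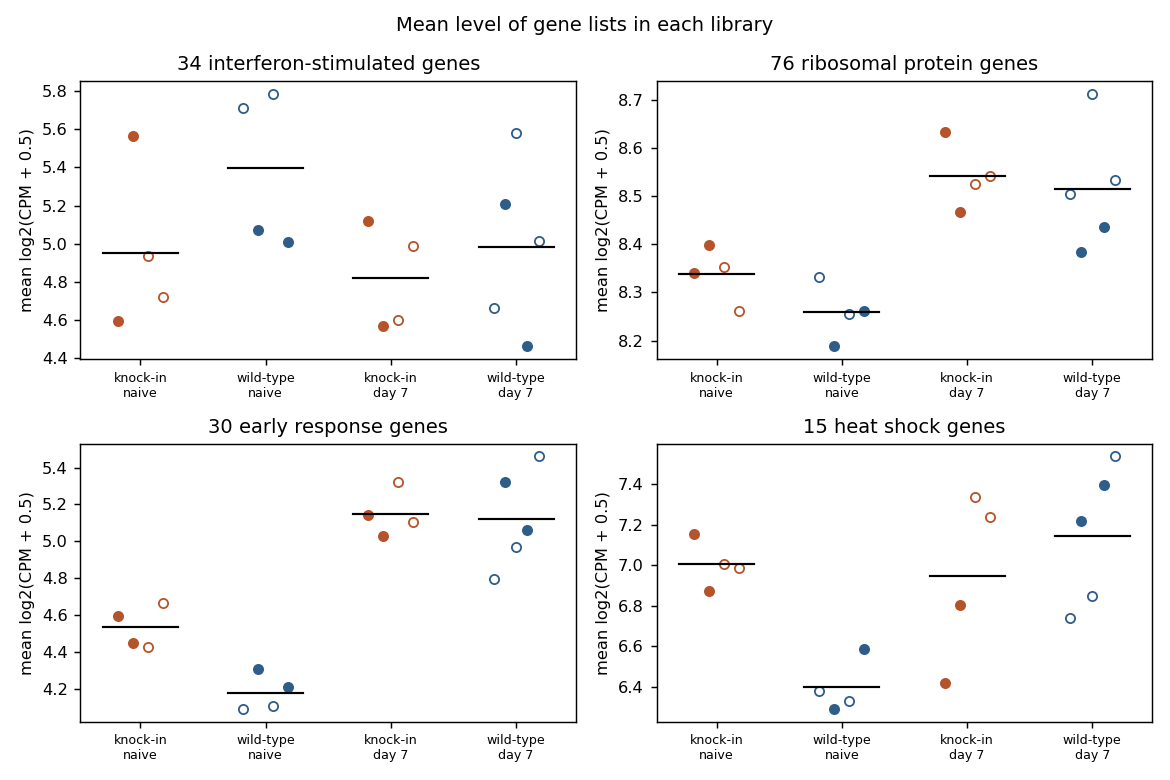
Mean log2(CPM + 0.5) of 4 gene lists in each library, with a bar at the group mean. Filled points are libraries of the 2 sets of library numbers that hold both genotypes, open points the others. The highest 2 interferon values are open wild-type naive points. Heat shock and early response genes are higher in all 4 knock-in than in all 4 wild-type naive libraries. Among lists not drawn, amino acid transporters are also higher in knock-in naive libraries (5.06 to 5.14 against 4.9 to 5.04). T follicular helper genes are lower there (3.43 to 3.61 against 3.63 to 3.76).

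Ribosomal protein genes, which build the cytosolic ribosome, lay slightly above 0. Of 76 tested genes 68 were positive and 8 negative, with a median of 0.05 (0.09 in naive cells and 0.02 at day 7) and 0 called. An unadjusted p under 0.05 was reached by 10, all positive, beside 2.21% of all tested genes on that side. Within the sets with both genotypes the median was 0.14, with 74 positive. Rpl17 and Rpl14, proteins of the large subunit, had 0.12 (SE 0.04) and 0.13 (SE 0.04). Such genes have many processed copies in the genome, which makes their counts uncertain. Mitochondrially encoded genes had a pooled median of -0.04 (8 of 10 negative), and -0.15 within those sets. Their median was -0.08 in naive cells (0 positive) and 0.007 at day 7 (6 positive). Nuclear-encoded respiratory chain subunits had a median of 0.01 (41 positive, 36 negative, 0 called), with Ndufv1 and Ndufa10 of complex I at -0.18 (SE 0.07) and -0.12 (SE 0.05).

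Histone and cell cycle genes had positive medians that 1 library moved most. Of 54 histone cluster genes, whose messages are made mostly in S phase, 49 were positive (median 0.22, 0 called). An unadjusted p under 0.05 was reached by 7, all positive, beside 2.21% of all tested genes on that side. The median was 0.18 in naive cells, where 43 were positive, and 0.27 at day 7, where 46 were. Without knock-in day 7 replicate 1 the median was 0.03, with 33 positive and 21 negative. Averaged over the histone list, log2(CPM + 0.5) was 3.85, 2.56, 2.70 and 3.48 in knock-in day 7 libraries, against 3.19, 3.11, 3.35, 2.10 and 2.96 in wild-type day 7 libraries. Of 37 S-phase and mitosis genes 28 were positive (median 0.12, 0 called; 0.008 in naive cells and 0.26 at day 7), and without that library the median was -0.05 with 11 positive. Mcm2 and Pcna, which act at the replication fork, had 0.16 (SE 0.06) and 0.11 (SE 0.07). Many histone genes are near-identical, so their reads may be split between copies.

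Genes of helper T cell subsets were measured because the series title names CD4 T cell differentiation, and 0 were called on any of these lists. Gata3, the Th2 factor, averaged 58.9 ± 5.25 CPM in knock-in and 57.3 ± 5.48 CPM in wild-type cells (log2 fold change 0.04, SE 0.06, 95% interval -0.08 to 0.17). Foxp3, the regulatory T cell factor, averaged 62.6 ± 4.72 and 57.8 ± 10.6 CPM (0.12, SE 0.10), and Bcl6, the follicular helper factor, 24.1 ± 3.55 and 25.1 ± 3.62 CPM (-0.05, SE 0.09). Tbx21, the Th1 factor, averaged 0.992 CPM in knock-in and 1.12 CPM in wild-type cells, and at that depth its error was wide (0.06, SE 0.48). In bulk RNA, fewer cells of a subset and less RNA per cell cannot be told apart.

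The list medians were 0.06 for 11 Th1 genes (7 positive), 0.04 for 7 Th2 genes (5 positive), 0.08 for 12 Th17 genes (9 positive), 0.04 for 13 T follicular helper genes (7 positive) and 0.08 for 14 regulatory T cell genes (10 positive). The T follicular helper median was -0.17 in naive cells (1 positive) and 0.19 at day 7 (10 positive). The Th1, Th2 and Th17 medians were -0.002, -0.05 and -0.03 in naive cells, and 0.08, 0.12 and 0.05 at day 7. Regulatory T cell genes had 0.03 and 0.10. Without knock-in day 7 replicate 1 the pooled Th17, T follicular helper and Th2 medians were -0.10, -0.13 and -0.10. Without wild-type day 7 replicate 1 the Th1 median was -0.05. The regulatory T cell median stayed between 0.04 and 0.12 when any 1 library was left out. Among Th17 genes, Il6st, which encodes gp130 of the IL-6 receptor, had 0.10 (SE 0.04) and the nuclear receptor gene Rora -0.33 (SE 0.15). Cxcr5, which leads T cells into B cell follicles, had 0.70 (SE 0.42), with a 95% interval from -0.20 to 1.60. It stood at 37.6 CPM in knock-in day 7 replicate 1, and without that library the value was 0.24. Among regulatory T cell genes, the integrin gene Itgae had 0.27 (SE 0.13) and Capg, an actin-capping protein, 0.22 (SE 0.10).

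Naive and signalling genes had small errors and medians close to 0. The 21 naive and quiescence genes ranged from -0.10 (Klf3, SE 0.05) to 0.08, with a median of -0.03 and a median SE of 0.0465. The 20 activated T cell genes were measured less tightly (median SE 0.146) and ranged from -0.16 to 0.60, with a median of 0.01 that was -0.07 without knock-in day 7 replicate 1. The 18 genes of the CD3 complex and receptor signalling had a median of 0.004, where Cd28, the main costimulatory receptor, had -0.09 (SE 0.06). The 18 genes of PI3K, Akt and Foxo signalling had a median of -0.01. Of 12 ubiquitin ligase and anergy genes 10 were negative in the pooled values (median -0.05). By stage, 7 were positive in naive cells (median 0.02) and 3 at day 7 (median -0.11). Wwp1, a NEDD4-family ligase, had a pooled value of -0.20 (SE 0.07) and Ndfip1, an activator of such ligases, 0.11 (SE 0.05). Glycolysis and glucose uptake genes had a median of 0.06 (13 of 16 positive), and amino acid transporters 0.09 (7 of 9 positive), where Slc7a5 had 0.19 (SE 0.09).

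**Figure D5:**
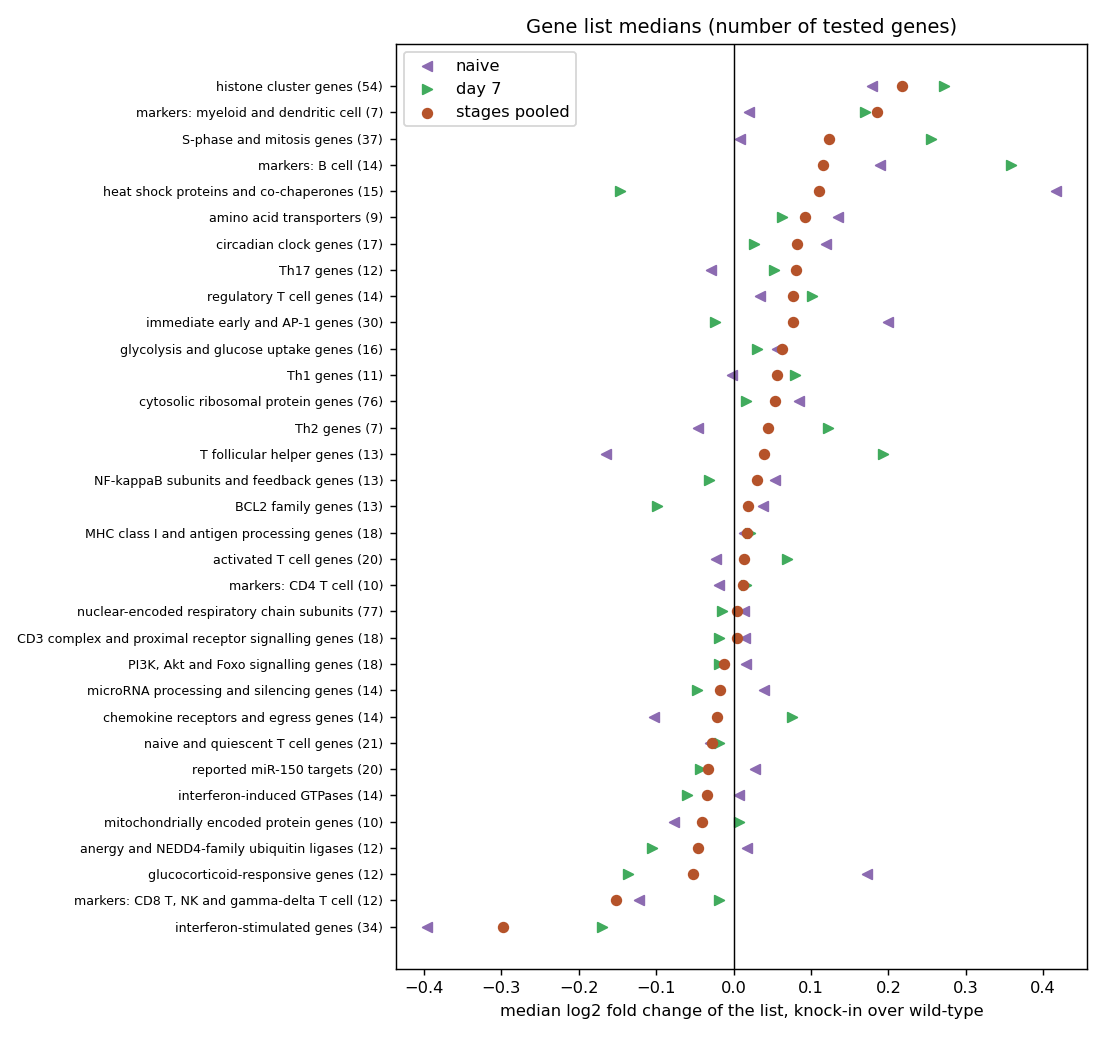
Median log2 fold change of knock-in over wild-type cells for each list of at least 7 tested genes, in naive cells, at day 7 and with stages pooled. The pooled medians lie between -0.30 for interferon-stimulated genes and 0.22 for histone cluster genes, and the stages differ most for heat shock genes (0.42 and -0.15).

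The remaining lists also held 0 called genes. Of 18 genes of MHC class I and antigen processing 12 were positive (median 0.02), and the median was 0.09 within the sets with both genotypes. Medians were 0.03 for 13 NF-kappaB subunits and feedback genes, 0.02 for 13 BCL2 family genes, which set the threshold of apoptosis, and -0.02 for 14 chemokine receptors and egress genes. The 17 circadian clock genes had 0.08 (12 positive), and the 12 glucocorticoid-responsive genes -0.05, with 0.17 in naive cells and -0.14 at day 7.

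Some of the largest fold changes rested on single libraries. Among genes with a mean of at least 5 CPM, 7 had a pooled log2 fold change beyond 1 in either direction, and 0 of them was called. Rnu1a1, a U1 spliceosomal RNA gene, had -6.41 (SE 2.26): wild-type day 7 replicate 5 gave 1080 CPM, and every other library gave 1.60 CPM or less. Without that library the value was -0.21. Ighg1, an immunoglobulin heavy chain gene, had 5.77 (SE 2.24): knock-in day 7 replicate 4 gave 260 CPM, and every other library 4.10 CPM or less. Igkc, the kappa light chain gene, had 1.57 (SE 0.87), with 199 CPM in the same library and 19.8 CPM or less in the others. Without knock-in day 7 replicate 4 these values were -0.50 and -0.01. The 14 tested B cell markers had a median of 0.12, which was -0.21 without that library; their part in other results was not tested.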

How the data were processed

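Sorted cells were frozen, their RNA purified on miRNeasy columns, and stranded total RNA libraries read in pairs on an Illumina NovaSeq, per the labels' protocols. The deposited table holds raw counts per gene, made by the authors; the submitters' processing notes name mm10 and DESeq2, and for the aligner, counter, strand setting and annotation the sources used here give nothing. Antisense and overlapping genes are therefore uncertain. The table covers 46078 genes, 45143 with a symbol in the reference annotation of mm10. No replicate pair agreed within sampling noise (lowest chi-square per degree of freedom 5.40 over 28 pairs). Precision depends on depth; p-values are two-sided.

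Genes were kept by edgeR's filterByExpr over the 4 groups (minimum count 10, minimum total 15). Counts of the 17 libraries were scaled by TMM and fitted with a robust quasi-likelihood model with stage and genotype as terms; a fit with 1 mean per group gave the interaction and each stage. P-values were adjusted by Benjamini-Hochberg over all 13860 genes at 0.05. SEs and 95% intervals come from the test statistic and its degrees of freedom. CPM were scaled by TMM, and marker sums and the values of single markers given with them were not. Variance shares are sequential sums of squares of log2 CPM, added over genes. The procedure was tested on simulated data. Lists carry no test.

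The rule named Mir150, Myb, up to 12 called genes per direction by fold change and, where under 8 were called, those with the smallest p and a mean of at least 5 CPM up to 8; from each list up to 2 uncalled members with the smallest p and that mean; and the 5 tested genes on each side of Mir150. The choice by fold change or p passed over Xist, Y-linked and predicted genes, receptor segments and pseudogenes. Some genes that the rule names are not reported here. Other genes in the text were chosen after their values were seen. The members and lists were chosen with earlier results of these data known. A description by miR-150-5p seed sites was not run. Alternatives were no filter or one at 5 CPM in 4 libraries, RLE size factors, limma voom (quality weights), DESeq2, equal weight of stages, all 25 libraries, fewer gene classes, library number as a covariate, a block for each 4 consecutive library numbers, only the blocks with both genotypes, and leaving out each library. Tests ran in DESeq2 1.42.0, edgeR 4.0.16 and limma 3.58.1 under R 4.3.3, and tables and plots in matplotlib 3.10.9 and pandas 2.3.3 under Python 3.11.15.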

Additional observations from a re-analysis of the deposited data

Results flagged for a closer look

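In 29 of 403 sets of 4 or 5 libraries of 1 group, 1 library lay far from the others for a named gene. Chance alone flags about 1 in 20 such sets. Some genes, Rnu1a1, Ighg1 and Igkc among them, were named after their values were seen. The 29 of 403 can therefore not be set against that rate. The values are in CPM, with the range of the other libraries of the group.

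Among interferon-stimulated genes, Isg15 stood at 8.28 in knock-in naive replicate 2 (others 2.58 to 3.01) and Rsad2 at 9.07 in the same library (2.05 to 2.90). In that library Ankle2 was at 52.1 (56.2 to 56.6), Gata3 at 57.3 (54.9 to 55.3), Tapbp at 196 (178 to 179) and Prr12 at 159 (148 to 149). Il4ra was at 262 in knock-in naive replicate 1 (313 to 319).

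Knock-in day 7 replicate 1 had 49.4 for Gbp5 (30.9 to 33.96) and 106 for Gbp2 (48.5 to 51.9). Replicate 3 of that group had 273 for Calr (319 to 323), 44.0 for Wwp1 (31.8 to 32.5) and 1590 for mt-Cytb (1231 to 1277). Replicate 4 had 63.9 for Ndufa10 (53.4 to 55.1), 260 for Ighg1 (0 to 3.85) and 199 for Igkc (5.85 to 12.9).

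In wild-type naive cells, replicate 1 had 285 for Calr (228 to 230). Replicate 2 had 4.30 for Tbx21 (0.823 to 0.94), 10.2 for Igkc (2.35 to 2.78) and 171 for Prr12 (134 to 135). Replicate 3 had 19.3 for Slc2a1 (24.4 to 25.4) and 4.46 for Rcn3 (2.26 to 2.55), and replicate 4 had 30.6 for Bcl6 (21.5 to 22.99).

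In wild-type day 7 cells, replicate 1 had 62.9 for Cd40lg (72.4 to 73.7). Replicate 3 had 0.973 for Ighg1, which was listed at 0 in the others, and 42.6 for Snord35a (26.4 to 30.3). Replicate 4 had 11.9 for Cd8b1 (7.67 to 8.65), and replicate 5 had 156 for Junb (107 to 121), 37.7 for Nnt (32.4 to 33.4) and 1080 for Rnu1a1 (0.771 to 1.60).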

How the results depend on the processing

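The count of genes called for the pooled knock-in effect was 0 in all settings except without a filter on low counts, where 1 predicted gene passed. That setting also gave 23 genes for the interaction, 12 for naive cells and 12 for day 7. DESeq2 gave 12, 7 and 1, limma voom 3 for the interaction, and a fit with all 25 libraries 1 for naive cells. Leaving out 1 library gave 0 to 4 genes for the interaction and 0 to 1 for naive cells. Day 7 against naive cells gave 149 genes within the sets of both genotypes, where 8 libraries remain. The cause of these differences was not tested. No paired analysis was possible because the titles give each library its own number and no replicate number that groups share. Fits with a block for each set of library numbers were run and are given below, but no label states those sets as a pairing.

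Of 2820 values of 101 genes, 75 over 24 genes turned in sign and 0 passed the threshold. Under limma voom these were Pecam1 -0.0281, Tbx21 -0.0364, Dnaja1 0.0105, Fcgrt 0.00319, Snord35b -0.0878 and Snord35a -0.18. Tbx21 had -0.0070 with equal weight of stages and -0.012 with all 25 libraries. With library number as a covariate Myb had 0.0542, Il4ra -0.000419, Bcl6 0.0143 and Zkscan8 0.0117. With the sets as a block the values were Mir150 0.0852, Il4ra -0.0454, Gata3 -0.000272, Slc7a6 -0.0762, Pecam1 -0.0231, Tbx21 -0.212, Isg15 0.345, Rsad2 0.293, Ifit1 0.137, Rnu1a1 0.224, Nosip 0.117 and Fcgrt 0.514. Within the sets of both genotypes they were Mir150 0.0702, Il4ra -0.0415, Gata3 -0.000989, Slc7a6 -0.0723, Pecam1 -0.0232, Tbx21 -0.331, Isg15 0.356, Rsad2 0.281, Ifit1 0.157, Rnu1a1 0.149, Nosip 0.116 and Fcgrt 0.498.

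Leaving out 1 library turned 14 genes, over these ranges: Bcl6 -0.093 to 0.016, Cyfip2 -0.00974 to 0.0278, Fcgrt -0.128 to 0.0893, Gm45713 -0.0617 to 0.00306, Ighg1 -0.496 to 7.36, Igkc -0.010 to 1.90, Myb -0.12 to 0.0188, Nosip -0.10 to 0.0116, Pecam1 -0.0087 to 0.0357, Prr12 -0.0106 to 0.0681, Rpl13a -0.0386 to 0.0767, Snord35a -0.264 to 0.134, Snord35b -0.123 to 0.275 and Tbx21 -0.273 to 0.566. Of 1034 list medians, 11 moved beyond the spread between replicates. Depth limits genes with few counts, such as Tbx21.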

Other observations

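Mid1, a microtubule-associated ubiquitin ligase on the X chromosome, was chosen after its values were seen because its libraries fell into separate low and high levels within groups. In naive cells it stood at 7.22, 7.24, 53.3 and 55.2 CPM in knock-in libraries, against 26.3, 43.3, 41.7 and 6.07 CPM in wild-type libraries. At day 7 it stood at 53.1, 43.7, 6.44 and 48.4 CPM in knock-in libraries, against 5.79, 4.01, 9.07, 7.91 and 5.43 CPM in wild-type libraries. Low and high values occurred in both genotypes, and its pooled log2 fold change was 1.32 (SE 0.64, adjusted p = 0.9996 by edgeR).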
